A study of Mus musculus with 30 samples.

Results

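The genes described here are 10 enzymes that make or break down cyclic AMP (cAMP), out of 55414 genes counted in mouse bone marrow-derived macrophages. They comprise 5 adenylyl cyclase genes (Adcy2, Adcy3, Adcy6, Adcy7 and Adcy9) and 5 cAMP phosphodiesterase genes (Pde3b, Pde4a, Pde4b, Pde4d and Pde7a). The 10 genes were chosen by name, from a view of the read counts of these same 30 libraries by genotype and state. Their levels, fold changes and calls are therefore a description of these libraries, and no p-value below is independent support for them. All 10 were among the 15686 genes kept by a filter on low counts. The only adenylyl cyclase genes that passed this filter were these 5, whereas Adcy1, Adcy4, Adcy5, Adcy8 and Adcy10 had between 0 and 90 reads in all 30 libraries together and were not tested.

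Bulk RNA sequencing of polyA RNA covered 2 genotypes in 3 states, with 5 libraries in each of the 6 groups. TRα1PV macrophages came from transgenic mice with a mutant thyroid hormone receptor α1, and WT macrophages came from wild type mice. In both genotypes whole bone marrow was grown for 7 days with 15 or 20% L929-conditioned medium, which supplies macrophage colony-stimulating factor. Cells were then given LPS and interferon-γ at 20 ng/mL each (M1), given interleukin-4 at 20 ng/mL (M2), or left without stimulus (M0). The PV mutation alters the hormone-responsive end of the receptor and makes it a dominant negative. The labels give neither zygosity, age, sex and time under stimulus nor the promoter that drives the mutant receptor, and the same number in each group marks a biological replicate. Genotype was taken from the labels, since a count per gene cannot show a change within the receptor's own sequence. Reads assigned to genes numbered 3.09e+07 to 5.91e+07 per library in TRα1PV M0, 3.07e+07 to 4.15e+07 in TRα1PV M1 and 3.23e+07 to 5.02e+07 in TRα1PV M2. The WT M0 libraries had 2.89e+07 to 3.91e+07, the WT M1 libraries 3.16e+07 to 3.6e+07, and the WT M2 libraries 2.3e+07 to 3.44e+07. Within WT M0, replicate 2 stood apart with 4.56% of its reads in mitochondrial genes and 14.2% outside genes, although TRα1PV M0 replicate 3 had 14.7% outside genes. Macrophage markers were high in every library, with summed levels of 7490 CPM or more. Their sum was lower in M1 (7490 to 10100 CPM in TRα1PV and 8570 to 9970 CPM in WT) than in M0. In M0 it was 26500 to 31200 CPM in TRα1PV and 29100 to 33700 CPM in WT, and M2 lay between. Levels are CPM throughout, a gene's reads per 1e+06 reads of the library after TMM scaling, with no correction for gene length, so they are compared between libraries and not between genes.

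Cyclic AMP is made from ATP at the plasma membrane by adenylyl cyclases, most of which are switched on by receptors coupled to the G protein Gs and several of which are held back by Gi. Phosphodiesterases hydrolyse it. In macrophages cAMP acts through protein kinase A, Epac and the transcription factor CREB, and it is known for restraining the production of tumour necrosis factor and other inflammatory mediators after LPS. The PDE4 enzymes are specific for cAMP and are the target of rolipram and related anti-inflammatory drugs.

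RefSeq promoter sequences were at hand for 7 of the 10 genes, with 15 transcript starts in all. None was at hand for Adcy6, Pde3b and Pde7a. Those of 3 genes are shown, each as the 250 bases before the start: that of Adcy2, which was higher in TRα1PV in all 3 states, and 1 start each of Adcy7 and Pde4b, which were lower in TRα1PV in all 3 states. Capitals mark the thyroid hormone receptor half-site AGGTCA and the half-site TGACG of the cAMP response element (CRE), searched on both strands, so that TGACCT and CGTCA are the same motifs on the other strand. Coordinates are those of RefSeq on GRCm38.p6, a build other than the GRCm39 named for the counts, and served only for these sequences.

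The Adcy2 promoter, at chr13:68999542-68999791 on the minus strand, contains none of the motifs searched.
Adcy2: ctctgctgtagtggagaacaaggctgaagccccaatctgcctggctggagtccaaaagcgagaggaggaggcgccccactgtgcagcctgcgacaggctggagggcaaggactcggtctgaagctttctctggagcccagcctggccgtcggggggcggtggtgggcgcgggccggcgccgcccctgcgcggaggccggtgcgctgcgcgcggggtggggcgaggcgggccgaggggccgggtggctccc
The first of 3 Adcy7 starts, at chr8:88282742-88282991 on the plus strand, has AGGTCA 226 bases before the start, TGACCT 102 bases before it and CGTCA 28 bases before it.
Adcy7: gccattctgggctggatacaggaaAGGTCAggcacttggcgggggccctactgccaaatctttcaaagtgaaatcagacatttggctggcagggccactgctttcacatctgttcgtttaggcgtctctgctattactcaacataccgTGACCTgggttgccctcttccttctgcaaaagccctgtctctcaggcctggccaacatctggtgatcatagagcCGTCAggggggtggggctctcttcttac
The first of 4 Pde4b starts, at chr4:102421305-102421554 on the plus strand, has CGTCA 34 bases before the start.
Pde4b: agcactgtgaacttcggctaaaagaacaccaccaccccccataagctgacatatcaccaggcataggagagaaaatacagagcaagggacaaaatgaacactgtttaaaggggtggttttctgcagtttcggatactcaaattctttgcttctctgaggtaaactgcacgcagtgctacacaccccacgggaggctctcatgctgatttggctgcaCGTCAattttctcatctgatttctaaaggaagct
The full CRE, TGACGTCA, was in 0 of the 15 promoters, each searched over 300 bases from 250 before to 50 after the start, against 1.8% of 32544 mouse promoters. The CRE half-site, which the full CRE contains, was in 4 of the 15 (1 start each of Adcy7, Adcy9, Pde4a and Pde4b), against 20.9% of all promoters. AGGTCA was in 2 of the 15 (1 start each of Adcy7 and Pde4b), against 16.2% of all promoters. These matches are letters in a window and say nothing of binding, and counts per gene cannot tell which start was used.

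Between the genotypes, 6 of the 10 genes were called in M0 (2 higher and 4 lower in TRα1PV), 6 in M1 (2 higher and 4 lower) and 4 in M2 (1 higher and 3 lower). A gene was called when the adjusted p of edgeR's quasi-likelihood test, with Benjamini-Hochberg adjustment over all 15686 genes, was under 0.05. Of all genes tested, 26.0% were called in M0 (12.0% higher and 14.0% lower), 20.0% in M1 (9.74% higher and 10.2% lower) and 13.1% in M2 (6.14% higher and 6.96% lower). The libraries of the genotypes did not overlap for 5 of the 10 genes in M0, 4 in M1 and 4 in M2, against 12.5%, 11.6% and 13.8% of all genes. As the genes were chosen with these contrasts known, nothing is read from the difference between these shares. The median log2 fold change of the 10 genes was 0.00 in M0, -0.23 in M1 and 0.03 in M2, beside -0.01, 0.00 and -0.01 over all genes.

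Adcy2 encodes a cyclase that G protein βγ subunits and protein kinase C stimulate and that is best known from brain. In M0 it had 3.31, 2.52, 2.82, 3.58 and 5.13 CPM in TRα1PV libraries 1 to 5, against 0.397, 0.689, 0.565, 0.686 and 1.20 CPM in WT libraries 1 to 5. In M1 it had 0.574, 0.786, 1.25, 0.756 and 1.76 CPM in TRα1PV libraries, against 0.0342, 0.0746, 0.137, 0.177 and 0.118 CPM in WT libraries. In M2 it had 1.39, 0.730, 0.947, 1.59 and 2.40 CPM in TRα1PV libraries, against 0.193, 0.261, 0.207, 0.180 and 0.322 CPM in WT libraries. Every TRα1PV library lay above every WT library of its state. Replicate 5 was the highest library of its group in both genotypes, except in WT M1. The log2 fold change was 2.30 ± 0.29 in M0, 3.22 ± 0.46 in M1 and 2.58 ± 0.37 in M2 (± SE, n = 5 libraries a group), with adjusted p of 8.68e-07, 1.1e-05 and 1.11e-05. Errors of this kind were derived from the fit and are approximate. TRα1PV was 4.92-fold higher than WT in M0, 9.34-fold higher in M1 and 5.99-fold higher in M2. The WT side of these folds rests on few reads, with 1, 2, 4, 5 and 3 in WT M1 libraries 1 to 5. WT M2 had 39 reads in all and WT M0 had 134, so the M1 fold is the least certain in size.

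Adcy7 encodes the cyclase best known from blood cells, including macrophages. In M0 it had 313, 292, 283, 250 and 272 CPM in TRα1PV libraries 1 to 5, against 404, 319, 380, 400 and 358 CPM in WT libraries 1 to 5. In M1 it had 96.2, 84.4, 94.5, 98.5 and 80.0 CPM in TRα1PV libraries, against 126, 112, 112, 118 and 108 CPM in WT libraries. In M2 it had 204, 167, 173, 184 and 177 CPM in TRα1PV libraries, against 363, 317, 329, 292 and 311 CPM in WT libraries. The genotypes did not overlap in any state, though in M0 the highest TRα1PV library (313 CPM) lay close to the lowest WT library (319 CPM). The log2 fold change was -0.40 ± 0.07 in M0, -0.35 ± 0.08 in M1 and -0.83 ± 0.08 in M2, with adjusted p of 0.000203, 0.00155 and 2.56e-09. WT was 1.78-fold higher than TRα1PV in M2, 1.32-fold higher in M0 and 1.27-fold higher in M1.

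Adcy6 encodes a cyclase that calcium and Gi inhibit, and its read numbers were small. In M0 it had 24, 15, 25, 17 and 8 reads in TRα1PV libraries 1 to 5 (0.359 ± 0.123 CPM, SD, n = 5), against 44, 42, 44, 54 and 42 reads in WT libraries 1 to 5 (1.18 ± 0.0974 CPM). In M2 it had 7, 9, 3, 10 and 6 reads in TRα1PV libraries (0.174 ± 0.0604 CPM), against 21, 15, 12, 8 and 20 reads in WT libraries (0.458 ± 0.133 CPM). The genotypes were apart in M0 and overlapped in M2, where WT replicate 4 lay within the range of the TRα1PV libraries. The M0 log2 fold change was -1.70 ± 0.30 (adjusted p = 0.000112), and that of M2 was -1.37 ± 0.38 (adjusted p = 0.0163). The M2 call was lost without WT M2 replicate 1 (log2 fold change -1.27, adjusted p = 0.0519). In M1 all 3 reads of the TRα1PV group were in replicate 1, against 4, 6, 2, 0 and 1 reads in WT libraries. The M1 ratio of TRα1PV to WT was 0.229, with a 95% exact interval of 0.0418 to 0.832 that covers counting error only. Adcy6 was not called in M1 (adjusted p = 0.0945), whereas it was called without TRα1PV M1 replicate 1 (adjusted p = 0.00794) and without WT M1 replicate 4 (adjusted p = 0.0396). Those fits moved its log2 fold change of -1.96 to -4.82 and -2.28, and the value of -4.82 is set against TRα1PV libraries that all have 0 reads, so its size depends on the fit.

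Adcy3 encodes a cyclase known from olfactory neurons and from body weight control. In M0 it had 8.15, 10.2, 7.97, 9.07 and 8.93 CPM in TRα1PV libraries 1 to 5, against 13.3, 10.2, 13.2, 14.3 and 11.7 CPM in WT libraries 1 to 5. In M2 it had 19.2, 16.4, 17.7, 17 and 17.9 CPM in TRα1PV libraries, against 15.9, 12.6, 14.6, 14.1 and 16.1 CPM in WT libraries. TRα1PV was thus the lower genotype in M0 and the one with the higher levels in M2, with no overlap in either state, although the M0 libraries numbered 2 both read 10.2 CPM. The M0 difference was called (log2 fold change -0.51 ± 0.14, adjusted p = 0.00953) and the M2 difference was not (0.27 ± 0.14, adjusted p = 0.202). The M0 call was lost when the fraction of each library's reads lying outside genes entered the fit (-0.39, adjusted p = 0.0573), and the M2 difference was called when only the M2 libraries were fitted (0.27, adjusted p = 0.0179). In M1 levels ranged from 0.401 to 0.982 CPM in TRα1PV libraries and from 0.276 to 0.857 CPM in WT libraries (0.30 ± 0.26, adjusted p = 0.446). Adcy3 overlaps Cenpo, a centromere protein gene on the other strand, and no source used here says whether counting used strand, so their reads cannot be told apart where they overlap. Cenpo averaged 13.6 ± 0.804 CPM in TRα1PV M0 and 12.5 ± 0.684 CPM in WT M0, and 14 ± 0.727 CPM in TRα1PV M2 and 13.2 ± 0.767 CPM in WT M2 (SD, n = 5 each).

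Adcy9 encodes a cyclase that responds weakly to forskolin, the plant compound that activates the other membrane cyclases. It averaged 35.1 ± 3.89 CPM in TRα1PV, with 34.2 ± 2.52 CPM in WT in M0, and 13.5 ± 2.29 CPM in TRα1PV, with 12.5 ± 1.68 CPM in WT in M1. In M2 it averaged 21.4 ± 3.31 CPM in TRα1PV, with 21.3 ± 1.76 CPM in WT. The genotypes overlapped in all 3 states and no difference was called, with log2 fold changes of 0.03 ± 0.11, 0.11 ± 0.11 and 0.00 ± 0.11 in M0, M1 and M2. Its TRα1PV M2 mean was raised by replicate 5 at 27.2 CPM, beside 19.3 to 20.3 CPM in the other TRα1PV M2 libraries.

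**Figure D1:**
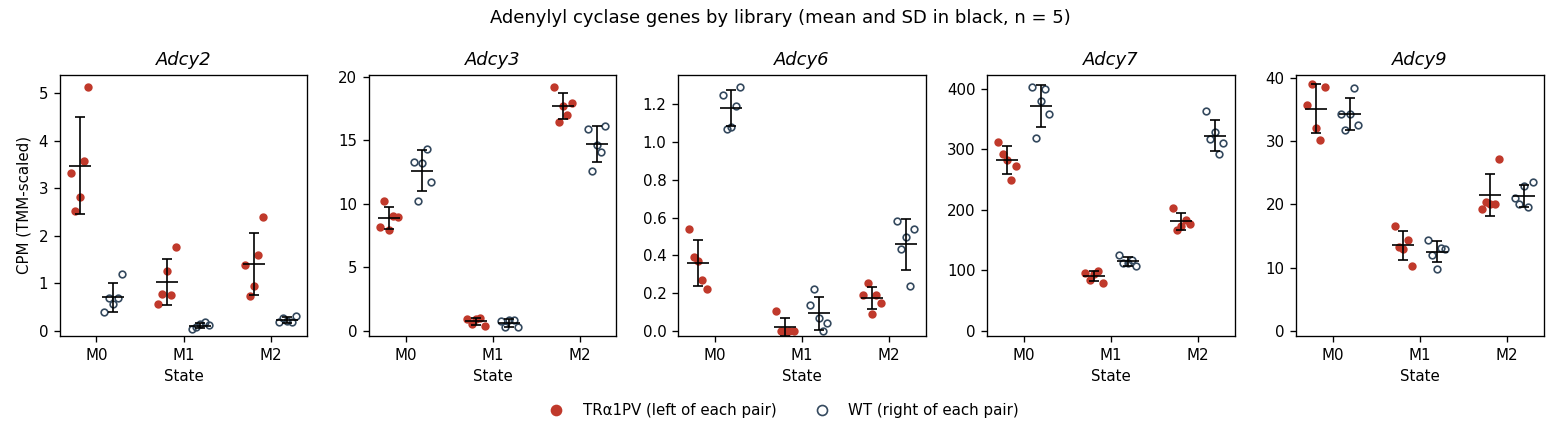
CPM of each of the 5 adenylyl cyclase genes (vertical axes, linear, a different range for each gene) in M0, M1 and M2 cells, 1 point a library, with TRα1PV filled and to the left of WT and with the mean and SD of 5 libraries in black. Adcy2 lies higher and Adcy7 lower in TRα1PV in every state, while the Adcy9 groups overlap in every state.

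Pde4b encodes the PDE4 enzyme that LPS-treated mouse macrophages need for full tumour necrosis factor output. In M0 it had 39.0, 35.3, 34.3, 31.2 and 32.2 CPM in TRα1PV libraries 1 to 5, against 46.5, 58.9, 48.2, 41.5 and 46.3 CPM in WT libraries 1 to 5. In M1 it had 13.6, 9.31, 9.80, 14.4 and 17 CPM in TRα1PV libraries, against 25.4, 51.2, 38.8, 31.2 and 52.6 CPM in WT libraries. In M2 it had 36.2, 34.7, 31.7, 30 and 30.6 CPM in TRα1PV libraries, against 48.8, 47.5, 51.0, 57.7 and 49.8 CPM in WT libraries. Every TRα1PV library lay below every WT library of its state, and the WT M1 libraries were the most spread. The log2 fold change was -0.49 ± 0.15 in M0, -1.63 ± 0.16 in M1 and -0.64 ± 0.15 in M2, with adjusted p of 0.0155, 3.04e-08 and 0.00426. In M1, WT was 3.10-fold higher than TRα1PV.

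Pde4a and Pde4d encode the related PDE4 enzymes. In M1 Pde4a had 16.2, 16.3, 19.3, 15.7 and 14.9 CPM in TRα1PV libraries 1 to 5, against 14.6, 13.4, 10.3, 14.4 and 12.7 CPM in WT libraries 1 to 5. All 5 TRα1PV libraries lay above the WT libraries there (log2 fold change 0.33 ± 0.08, adjusted p = 0.00363), so in M1 Pde4a was higher where Pde4b was lower. Pde4a was not called in M0 (-0.04 ± 0.08) or M2 (-0.03 ± 0.08). Pde4d averaged 0.467 ± 0.149 CPM in TRα1PV M1 and 0.753 ± 0.207 CPM in WT M1, with overlapping libraries (log2 fold change -0.69 ± 0.23, adjusted p = 0.0348). That call was lost with limma-voom, with no filter on low counts, with only the M1 libraries fitted, and without TRα1PV M1 replicate 1, 2 or 5 or WT M1 replicate 1 or 5 (adjusted p between 0.0598 and 0.112). Pde4d was not called in M0 (0.11 ± 0.15) or M2 (0.23 ± 0.15).

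Pde3b encodes the phosphodiesterase through which insulin lowers cAMP in fat cells, an enzyme that cGMP inhibits. In M1 it had 1.69, 1.26, 0.965, 1.36 and 1.42 CPM in TRα1PV libraries 1 to 5, against 1.61, 1.94, 2.74, 2.33 and 3.83 CPM in WT libraries 1 to 5. TRα1PV replicate 1 lay above WT replicate 1, and the other libraries of the genotypes were apart. The M1 difference was called (log2 fold change -0.88 ± 0.22, adjusted p = 0.00556) but not with limma-voom (-0.83, adjusted p = 0.0806). In M0 and M2 the TRα1PV means were above the WT means without a call, at 77.7 ± 9.92 CPM in TRα1PV, with 63.7 ± 9.94 CPM in WT in M0 (0.29 ± 0.14, adjusted p = 0.122), and at 44.7 ± 5.24 CPM in TRα1PV, with 37.0 ± 7.61 CPM in WT in M2 (0.27 ± 0.14, adjusted p = 0.188). Without both M0 libraries numbered 2, Pde3b was called higher in TRα1PV M0 (0.42, adjusted p = 0.0204).

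Pde7a encodes a cAMP-specific phosphodiesterase that rolipram does not inhibit. In M0 it had 28.8, 28.5, 29.9, 29.4 and 34.9 CPM in TRα1PV libraries 1 to 5, against 20.5, 30.9, 24.1, 21.7 and 26.4 CPM in WT libraries 1 to 5. The groups overlapped through WT replicate 2, and the difference was called (log2 fold change 0.29 ± 0.10, adjusted p = 0.0239). The call was lost when reads outside genes entered the fit (0.18, adjusted p = 0.176) and with only the M0 libraries fitted (adjusted p = 0.0889). It was also lost without TRα1PV M0 replicate 5 (adjusted p = 0.0849) and without WT M0 replicate 1, 3 or 4 (adjusted p = 0.0916, 0.0508 and 0.084). No difference was called in M1 (-0.12 ± 0.10) or M2 (0.07 ± 0.10).

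**Figure D2:**
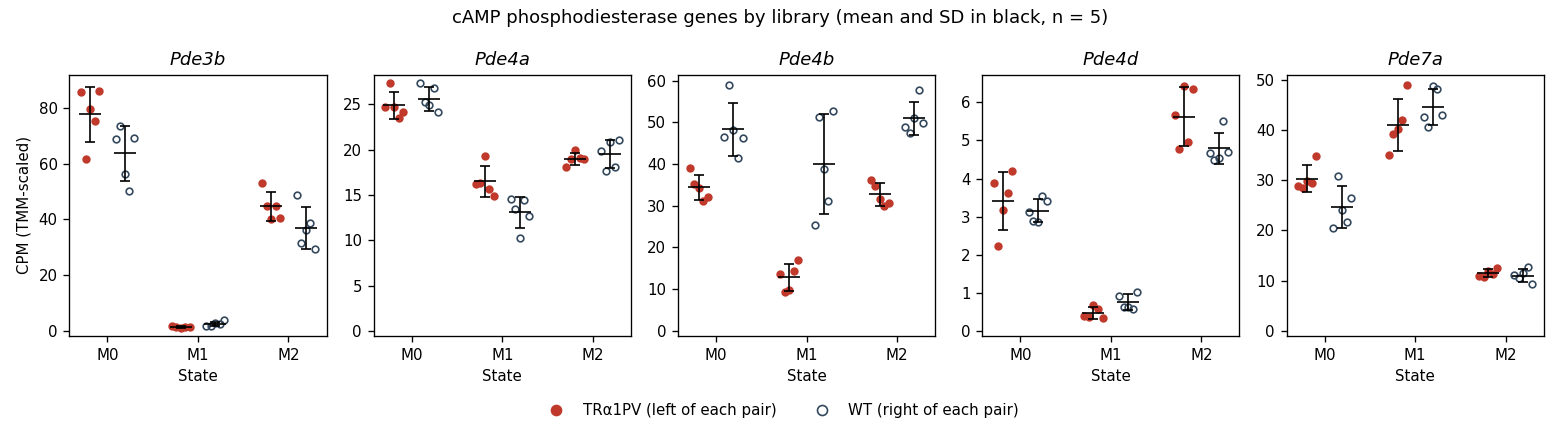
CPM of each of the 5 cAMP phosphodiesterase genes (vertical axes, linear, a different range for each gene) in M0, M1 and M2 cells, 1 point a library, with TRα1PV filled and to the left of WT and with the mean and SD of 5 libraries in black. Pde4b lies lower in TRα1PV in every state, and Pde3b and Pde4d are at their lowest in M1 in both genotypes.

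**Figure D3:**
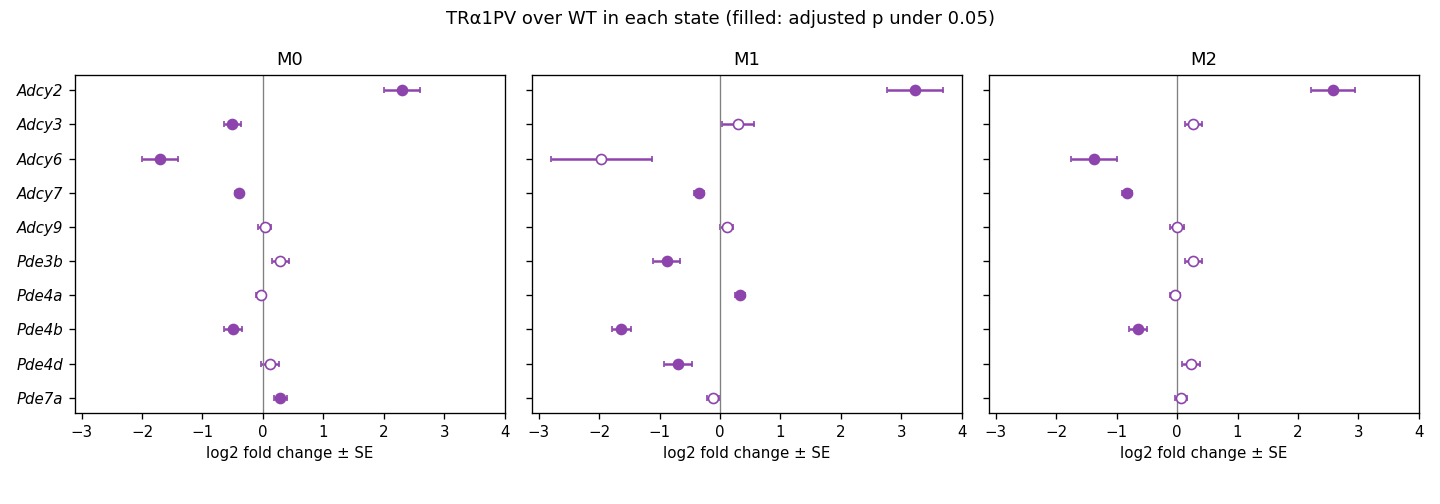
Log2 fold change of TRα1PV over WT ± SE for the 10 genes (rows) in M0, M1 and M2 (panels on 1 scale), with filled points for an adjusted p under 0.05. Adcy2 is to the right and Adcy7 and Pde4b to the left of 0 in each panel, whereas Adcy3, Pde3b, Pde4a, Pde4d and Pde7a change side between panels.

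Markers of other cell types moved with genotype in the same libraries. Of 9 fibroblast and stroma markers tested, 9 were called lower in TRα1PV in M0, 5 in M1 and 7 in M2. Their summed level was 1.83 to 3.49 CPM in TRα1PV, with 7.86 to 26.3 CPM in WT in M0, 5.12 to 7.82 CPM in TRα1PV, with 7.99 to 9.92 CPM in WT in M1, and 1.31 to 2.86 CPM in TRα1PV, with 4.38 to 16.1 CPM in WT in M2. Of 9 granulocyte and precursor markers, 9 were called higher in TRα1PV in M0, 1 in M1 and 6 in M2. Their summed level was 178 to 365 CPM in TRα1PV, with 48.3 to 209 CPM in WT in M0, 5.68 to 11.2 CPM in TRα1PV, with 3.46 to 5.29 CPM in WT in M1, and 98.2 to 228 CPM in TRα1PV, with 28.6 to 92.8 CPM in WT in M2. Pdgfra and Elane had no read in either M1 group. Of 3 endothelial markers tested, 2 were called higher in M0, 1 in M1 and 2 in M2, with 1 called lower in M2. Of 3 dendritic cell markers, 2 were called lower in M1. Of 8 macrophage markers, 1 was called higher and 2 lower in M0, 1 higher and 1 lower in M1, and 1 lower in M2. B cell, T and NK cell, and mast cell and basophil markers were at or below 0.218 CPM in sum. The part of these cells in the results was not tested, and in bulk samples fewer cells of a type and less RNA per cell cannot be told apart.

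After LPS and interferon-γ most of the 10 genes were lower than in M0, in both genotypes. In TRα1PV, 10 of the 10 were called (1 higher and 9 lower in M1 than in M0), and in WT 9 were called (1 higher and 8 lower). Of all genes tested, 80.7% were called in TRα1PV (40.0% higher and 40.7% lower) and 79.6% in WT (39.4% higher and 40.2% lower). The median log2 response of the 10 genes was -1.69 in TRα1PV and -1.88 in WT, beside -0.02 over all genes in each genotype. M1 and M2 responses of a genotype share its M0 libraries, and their values stand side by side without a comparison of the lists.

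Pde3b, Adcy3 and Adcy6 were among the genes that fell steeply in M1. Pde3b averaged 1.34 ± 0.262 CPM in TRα1PV M1 and 77.7 ± 9.92 CPM in TRα1PV M0, and 2.49 ± 0.862 CPM in WT M1 and 63.7 ± 9.94 CPM in WT M0. The log2 response was -5.85 ± 0.19 in TRα1PV and -4.68 ± 0.18 in WT, which put M1 57.8-fold below M0 in TRα1PV and 25.7-fold below it in WT. Adcy3 averaged 0.766 ± 0.285 CPM in TRα1PV M1 and 8.86 ± 0.874 CPM in TRα1PV M0, with log2 responses of -3.54 ± 0.19 in TRα1PV and -4.34 ± 0.20 in WT. Adcy6, at 3 reads in TRα1PV M1 and 89 in TRα1PV M0, had a ratio of M1 to M0 of 0.0599 (95% exact interval 0.0121 to 0.181, counting error only). In WT the Adcy6 ratio was 0.0799 (0.0419 to 0.139), from 13 reads in M1 and 226 in M0.

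The other cyclases fell less steeply in M1. The log2 response of Adcy2 was -1.73 ± 0.29 in TRα1PV and -2.66 ± 0.47 in WT, and that of Adcy7 was -1.64 ± 0.08 in TRα1PV and -1.69 ± 0.08 in WT. Adcy9 had a response of -1.38 ± 0.11 in TRα1PV and -1.46 ± 0.11 in WT. Among the PDE4 genes, Pde4d had responses of -2.87 ± 0.19 in TRα1PV and -2.07 ± 0.18 in WT, and Pde4a of -0.59 ± 0.08 in TRα1PV and -0.97 ± 0.08 in WT. Pde4b fell in TRα1PV (-1.42 ± 0.16, adjusted p = 1.46e-09) and was not called in WT (-0.28 ± 0.15, adjusted p = 0.0889). The WT response of Pde4b was called with limma-voom (-0.33, adjusted p = 0.0355) and without WT M1 replicate 2 (-0.38, adjusted p = 0.0246) or replicate 5 (-0.40, adjusted p = 0.0186). Pde7a was the gene of the 10 that rose in M1, by 0.44 ± 0.10 on the log2 scale in TRα1PV and 0.85 ± 0.10 in WT. It averaged 41.0 ± 5.13 CPM in TRα1PV M1 and 30.3 ± 2.63 CPM in TRα1PV M0, and 44.6 ± 3.64 CPM in WT M1 and 24.7 ± 4.13 CPM in WT M0. The TMM factors ranged from 0.7803 to 0.8486 in M1 libraries and from 1.117 to 1.19 in M0 libraries. The size of small M1 responses, such as that of Pde7a in TRα1PV, therefore depends on this scaling.

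After interleukin-4 most of the 10 genes were again lower than in M0. In TRα1PV 9 of the 10 were called (2 higher and 7 lower in M2 than in M0), and in WT 8 were called (1 higher and 7 lower). Of all genes tested, 57.7% were called in TRα1PV (28.3% higher and 29.4% lower) and 52.4% in WT (25.2% higher and 27.2% lower). The median log2 response of the 10 genes was -0.68 in TRα1PV and -0.54 in WT, beside -0.02 over all genes in each genotype. Pde7a fell, to 11.5 ± 0.748 CPM in TRα1PV M2, against 30.3 ± 2.63 CPM in TRα1PV M0 (log2 response -1.40 ± 0.10), and to 11.0 ± 1.25 CPM in WT M2, against 24.7 ± 4.13 CPM in WT M0 (-1.17 ± 0.10). It was thus above its M0 level in M1 and below it in M2 in both genotypes.

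Pde4d rose in M2, by 0.72 ± 0.15 in TRα1PV and 0.60 ± 0.15 in WT on the log2 scale, whereas it had fallen in M1. Adcy3 rose in TRα1PV M2 (1.00 ± 0.14, adjusted p = 5.76e-07) and was not called in WT M2 (0.22 ± 0.14, adjusted p = 0.195). Adcy2 fell by 1.28 in TRα1PV and by 1.56 in WT on the log2 scale, and Adcy9 fell by 0.71 in TRα1PV and by 0.68 in WT. Pde3b fell by 0.80 in TRα1PV and by 0.78 in WT, and Pde4a fell by 0.39 in TRα1PV and by 0.40 in WT. Adcy6 fell by 1.02 in TRα1PV (adjusted p = 0.0214) and by 1.35 in WT (adjusted p = 0.000472). Its TRα1PV call was lost without TRα1PV M0 replicate 1 (-0.83, adjusted p = 0.0765) or TRα1PV M2 replicate 3 (-0.87, adjusted p = 0.0624). Adcy7 fell by 0.64 in TRα1PV and by 0.21 in WT, and the WT call (adjusted p = 0.0209) was lost with no filter on low counts, with only the groups compared in the fit, and without WT M0 replicate 1 or 4 or WT M2 replicate 4 (adjusted p between 0.0515 and 0.0914). Pde4b was not called in either genotype (-0.07 ± 0.15 in TRα1PV and 0.08 ± 0.15 in WT).

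**Figure D4:**
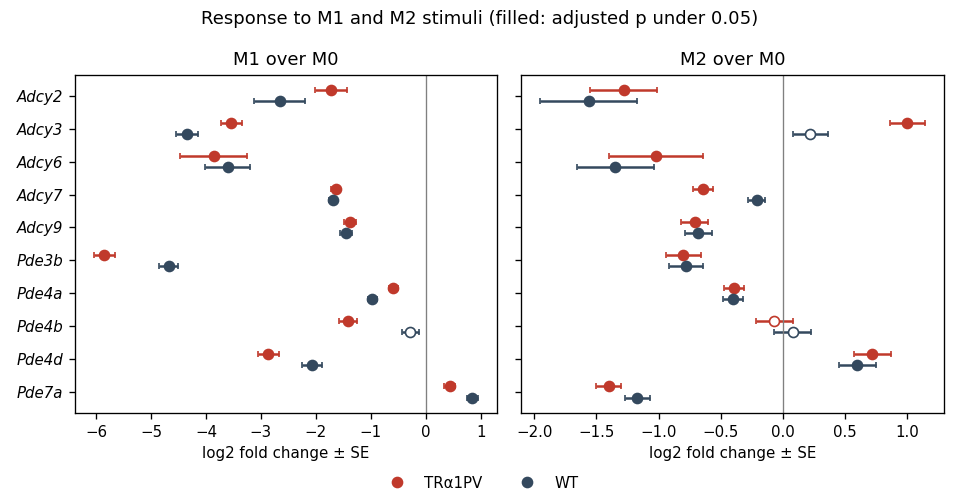
Log2 fold change ± SE of M1 over M0 (left panel) and M2 over M0 (right panel, a narrower scale) for the 10 genes, with TRα1PV in red above WT in dark blue and filled points for an adjusted p under 0.05. Most points lie left of 0 in both panels, Pde7a lies right of 0 in M1 and left of it in M2, and Pde4b is filled in TRα1PV M1 alone.

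The test of the difference between genotypes in the M1 response called 6 of the 10 genes (2 higher and 4 lower in TRα1PV), against 26.6% of all genes (13.3% higher and 13.3% lower). Pde4b fell further in TRα1PV (difference of log2 responses -1.14 ± 0.22, adjusted p = 0.000396), as did Pde3b (-1.17 ± 0.26, adjusted p = 0.00195). Pde4a fell less in TRα1PV (0.38 ± 0.11, adjusted p = 0.0133). These 3 calls were kept under all 28 alternatives. Pde7a rose less in TRα1PV (-0.41 ± 0.14, adjusted p = 0.0244), a call lost without TRα1PV M0 replicate 5, TRα1PV M1 replicate 1, WT M0 replicate 1 or 4, or WT M1 replicate 3 (adjusted p between 0.0525 and 0.058).

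The M1 differences of Pde4d (-0.80 ± 0.28, adjusted p = 0.0324) and Adcy3 (0.81 ± 0.30, adjusted p = 0.0437) did not hold under every alternative. That of Pde4d was lost under 11 of 28 alternatives: limma-voom, no filter, only the groups compared, and without TRα1PV M0 replicate 1 or 5, TRα1PV M1 replicate 1, 2 or 5, WT M0 replicate 3, or WT M1 replicate 1 or 5 (adjusted p between 0.0503 and 0.0804). That of Adcy3 was lost under 16 of 28: limma-voom, no filter, reads outside genes in the fit, only the groups compared, and without TRα1PV M0 replicate 1, 3, 4 or 5, TRα1PV M1 replicate 1, 3 or 4, WT M0 replicate 1, 3 or 4, or WT M1 replicate 2 or 5 (adjusted p between 0.054 and 0.11). Adcy2 (0.92 ± 0.58), Adcy6, Adcy7 and Adcy9 were not called.

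For M2 the difference between genotypes was called for 2 of the 10 genes (1 higher and 1 lower), against 2.16% of all genes (0.701% higher and 1.46% lower). Adcy3 rose more in TRα1PV (0.77 ± 0.20, adjusted p = 0.0336), and Adcy7 fell further in TRα1PV (-0.43 ± 0.11, adjusted p = 0.0209). The Adcy3 call was lost without TRα1PV M0 replicate 1 or 3, TRα1PV M2 replicate 1, 3 or 5, WT M0 replicate 3 or 4, or WT M2 replicate 2, 3 or 4 (adjusted p between 0.0536 and 0.0759). The Adcy7 call was lost without TRα1PV M0 replicate 1, TRα1PV M2 replicate 2 or WT M2 replicate 1, and without both M0 libraries numbered 2 (adjusted p between 0.0502 and 0.0561). Their log2 differences stayed between 0.72 and 0.78 for Adcy3 and between -0.40 and -0.36 for Adcy7 in those fits.

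In the order of the 6 group means, Adcy2 ran from TRα1PV M0 (3.47 CPM) through TRα1PV M2, TRα1PV M1, WT M0 and WT M2 to WT M1 (0.108 CPM), so all 3 TRα1PV groups stood above all 3 WT groups. The libraries of TRα1PV M2 and TRα1PV M1 overlapped, as did those of TRα1PV M1 and WT M0. Pde4b ran from WT M2 (51.0 CPM) through WT M0, WT M1, TRα1PV M0 and TRα1PV M2 to TRα1PV M1 (12.8 CPM), the reverse arrangement of genotypes. Of its 5 pairs of neighbours, 4 overlapped, and TRα1PV M1 stood apart from TRα1PV M2. Adcy7 ran from WT M0 (372 CPM) through WT M2, TRα1PV M0, TRα1PV M2 and WT M1 to TRα1PV M1 (90.7 CPM), and only its first 2 pairs of neighbours overlapped. Adcy9 and Pde7a were ordered by state, with the 2 genotypes of each state as overlapping neighbours.

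Over the 30 libraries, which share their 6 groups and are therefore not independent points, the gene with the log2 level most like that of Adcy3 was Tacc2 (Pearson r = 0.991), and for Pde3b it was Eif4b (0.990). For Pde7a it was Aftph (0.982), for Pde4d Ldlrad3 (0.980), for Adcy9 Tmem106c (0.978), for Adcy7 Foxred2 (0.972) and for Pde4a Smg6 (0.959). The closest genes to Adcy6, Pde4b and Adcy2 were Plcl1 (0.926), Phtf2 (0.905) and Pld1 (0.834), so Adcy2 had the least close match. With the mean of each group subtracted, Adcy3 was again near Tacc2 (0.812) and Adcy7 again near Cd300c2 (0.844, and 0.971 over the libraries as they stand). Among the 10 genes themselves, Adcy3 and Pde4d had the closest levels over the 30 libraries (r = 0.94), which fell to 0.07 within groups. Pde7a went the other way from both (r = -0.81 with Adcy3 and -0.82 with Pde4d), and within groups these were -0.12 and 0.03.

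The rest of the cAMP pathway was described with 10 lists of 92 genes in all, of which 69 passed the filter. Between genotypes 22 of the 69 were called in M0 (8 higher and 14 lower in TRα1PV), 27 in M1 (13 and 14) and 13 in M2 (4 and 9), where 26.0%, 20.0% and 13.1% of all genes were called. The median log2 fold change over the lists was -0.06, 0.06 and -0.04, beside -0.01, 0.00 and -0.01 over all genes. The M0 count was 14 when only the M0 libraries were fitted. The genes named below kept their call under every alternative tried for that comparison, unless stated otherwise.

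Upstream of the cyclases, 2 of 10 tested receptors that couple to Gs were called in M0, 4 in M1 and 4 in M2. Of all genes, 26.0%, 20.0% and 13.1% were called in these states. Ptger2, a receptor for prostaglandin E2, averaged 9.31 ± 1.00 CPM in TRα1PV, with 16.7 ± 1.80 CPM in WT in M0 (log2 fold change -0.84 ± 0.12, adjusted p = 3.68e-06). In M2 it averaged 18.2 ± 2.32 CPM in TRα1PV, with 32.5 ± 1.61 CPM in WT (-0.83 ± 0.12, adjusted p = 8.03e-06). The adenosine receptor gene Adora2b was higher in TRα1PV in M1 (0.62 ± 0.14). Of 4 tested G protein α genes, Gnas, which encodes Gs α, was lower in TRα1PV M0 (-0.32 ± 0.08, adjusted p = 0.00266). Gnai2 was higher in M1 (0.27 ± 0.05) and Gnai3 in M2 (0.42 ± 0.09), both of which encode inhibitory α subunits.

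Among 9 other tested phosphodiesterases that hydrolyse cAMP, 1 was called in M0 and 1 in M1, both higher in TRα1PV. Of all genes, 12.0% were called higher in M0 and 9.74% in M1. Pde7b was the one in M0 (0.22 ± 0.08, adjusted p = 0.0358) and Pde1b the one in M1 (0.29 ± 0.10, adjusted p = 0.0338), and each call was lost under 8 alternatives, at an adjusted p of up to 0.105 for Pde7b and 0.11 for Pde1b. Of 3 tested phosphodiesterases specific for cGMP, 1 was called higher in M0 and 1 in M1. It was Pde6b each time, a subunit gene of the photoreceptor enzyme, named after its values were seen (1.49 ± 0.34 in M0 and 1.30 ± 0.44 in M1). Its calls were not followed under the alternatives.

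Downstream, 3 of 8 tested protein kinase A subunit and inhibitor genes were called in each state. Beside every count in this paragraph, 26.0% of all genes were called in M0, 20.0% in M1 and 13.1% in M2. By direction these were 12.0% higher and 14.0% lower in M0, 9.74% and 10.2% in M1, and 6.14% and 6.96% in M2. Prkar2a, a regulatory subunit gene, was lower in TRα1PV in M0 (-0.20 ± 0.05, adjusted p = 0.00412), M1 (-0.43 ± 0.05, adjusted p = 1.15e-06) and M2 (-0.21 ± 0.05, adjusted p = 0.00658). Its M0 call was lost when only the M0 libraries were fitted (adjusted p = 0.0659). The catalytic subunit gene Prkaca was lower in M0 (-0.19 ± 0.07, adjusted p = 0.0311) and higher in M1 (0.33 ± 0.07, adjusted p = 0.000565). The M0 call of Prkaca was lost under 7 of 18 alternatives (adjusted p up to 0.257). Of 3 tested genes of Epac and Popeye effectors and the cAMP exporter Abcc4, 2 were called in M0 (1 higher and 1 lower) and 1 in M1. Abcc4 was lower in both states (-0.20 ± 0.06 in M0 and -0.24 ± 0.06 in M1), with the M0 call lost with no filter (adjusted p = 0.0552) and the M1 call lost when only the M1 libraries were fitted (adjusted p = 0.0508). Of 10 tested A-kinase anchoring protein genes, which tether protein kinase A, 4 were called in M0 (2 higher and 2 lower). In M1 4 were called, all lower, and in M2 1 was called, higher. Akap1, the anchor on mitochondria, was lower in M0 (-0.40 ± 0.08) and M1 (-0.54 ± 0.10). Of 11 tested genes of the CREB family, its coactivators and the salt-inducible kinases that restrain them, 3 were called in M0 (1 higher and 2 lower). In M1 5 were called (4 higher and 1 lower), and in M2 2 were called, both lower. The 1 called lower in M1 was Crem, which encodes cAMP-responsive activators and repressors. Crem averaged 46.4 ± 5.42 CPM in TRα1PV M1 and 64.0 ± 4.22 CPM in WT M1 (-0.46 ± 0.09, adjusted p = 0.000486).

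Of 11 tested genes known for induction through a CRE, 4 were called in M0 (all lower in TRα1PV), 7 in M1 (3 higher and 4 lower) and 2 in M2 (both lower). Of all genes, 26.0% were called in M0 (14.0% lower), 20.0% in M1 (9.74% higher and 10.2% lower) and 13.1% in M2 (6.96% lower). Vegfa, a vascular growth factor gene that many signals besides cAMP induce, was lower in all 3 states. It averaged 56.9 ± 4.28 CPM in TRα1PV, with 226 ± 15.0 CPM in WT in M0 (-1.99 ± 0.13), 168 ± 34.5 CPM in TRα1PV, with 348 ± 80.5 CPM in WT in M1 (-1.06 ± 0.13), and 25.5 ± 2.75 CPM in TRα1PV, with 78.9 ± 12.4 CPM in WT in M2 (-1.63 ± 0.14). Dusp1, a phosphatase of MAP kinases, went the other way in M1, at 171 ± 26.0 CPM in TRα1PV, with 89.8 ± 4.00 CPM in WT (0.93 ± 0.13, adjusted p = 1.16e-05). Nr4a1 was lower in M0 (-0.59 ± 0.14), and Nr4a2 (-0.89 ± 0.17) and Thbs1 (-1.10 ± 0.18) were lower in M1.

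**Figure D5:**
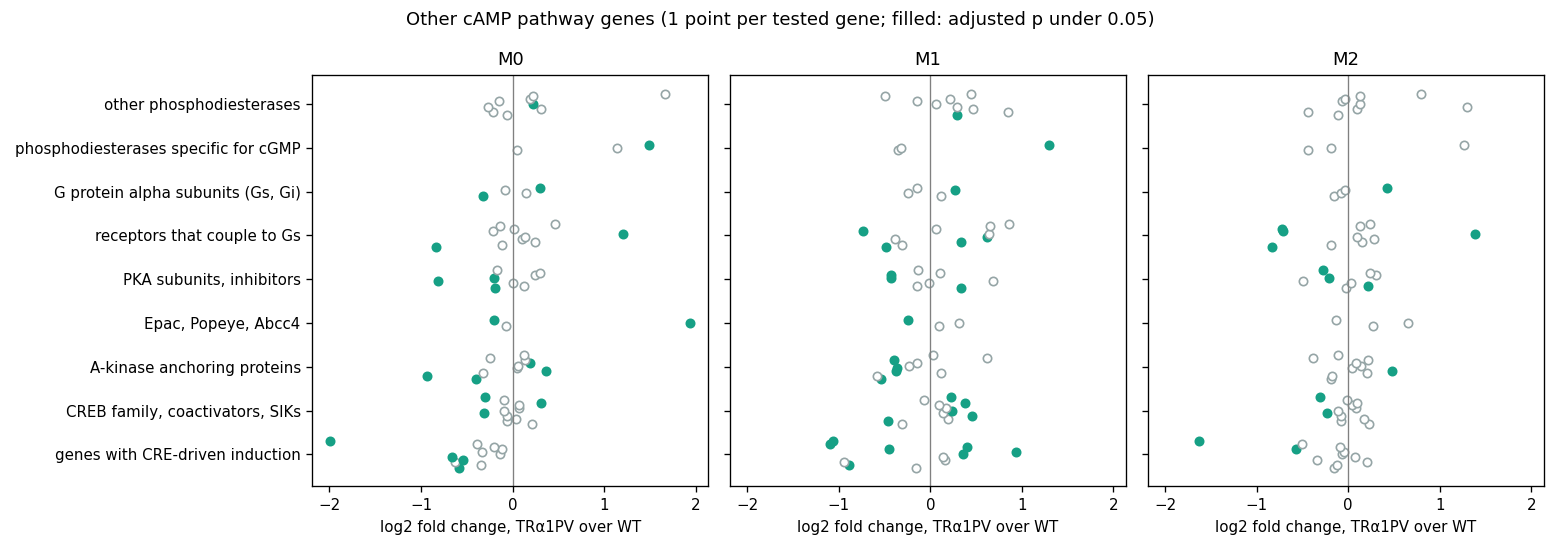
Log2 fold change of TRα1PV over WT for the 69 tested genes of the cAMP pathway, by list (rows), in M0, M1 and M2 (panels on 1 scale), 1 point a gene, filled where the adjusted p was under 0.05. Filled points lie on both sides of 0, with 8 to the right and 14 to the left in M0 and 13 and 14 in M1.

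In response to LPS and interferon-γ, 56 of the 69 pathway genes were called in TRα1PV (28 higher and 28 lower in M1) and 58 in WT (29 and 29), while 80.7% of all genes were called in TRα1PV and 79.6% in WT. The other cAMP phosphodiesterases included genes that rose in M1. Pde8b averaged 23.1 ± 2.41 CPM in TRα1PV M1 and 6.14 ± 0.716 CPM in TRα1PV M0 (log2 response 1.91 ± 0.09), and 20.0 ± 1.07 CPM in WT M1 and 5.38 ± 0.441 CPM in WT M0 (1.89 ± 0.09). Pde1b rose by 0.99 ± 0.10 in TRα1PV and 0.64 ± 0.10 in WT, and Pde7b by 0.40 ± 0.08 in TRα1PV and 0.56 ± 0.08 in WT. Of the 9 in this list, 6 were called higher and 2 lower in each genotype. Pde1c fell, to 0.169 ± 0.154 CPM in TRα1PV M1, against 9.26 ± 1.99 CPM in TRα1PV M0, and to 0.0917 ± 0.0536 CPM in WT M1, against 10.7 ± 2.98 CPM in WT M0.

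The 4 tested G protein α genes were all called higher in M1 in both genotypes, with Gnas at 1.03 ± 0.08 in TRα1PV and 0.58 ± 0.08 in WT on the log2 scale. Of the 10 receptor genes, 4 rose and 6 fell in each genotype. Of all genes, 40.0% were called higher and 40.7% lower in TRα1PV M1, and 39.4% higher and 40.2% lower in WT M1. Hrh2, the histamine H2 receptor gene, averaged 102 ± 5.57 CPM in TRα1PV M1 and 0.624 ± 0.318 CPM in TRα1PV M0, and 97.6 ± 18.8 CPM in WT M1 and 0.614 ± 0.202 CPM in WT M0. Adora2a, an adenosine receptor gene, averaged 24.0 ± 5.56 CPM in TRα1PV M1 and 0.153 ± 0.0497 CPM in TRα1PV M0, and 31.4 ± 6.70 CPM in WT M1 and 0.149 ± 0.0685 CPM in WT M0. Vipr1, a receptor gene for vasoactive intestinal peptide, fell in both genotypes, with log2 responses of -5.24 in TRα1PV and -6.03 in WT. In M2, 49 of the 69 genes were called in TRα1PV (15 higher and 34 lower), where 57.7% of all genes were called, and 49 in WT (13 and 36), where 52.4% were. Adora2b rose there by 2.52 ± 0.15 in TRα1PV and 2.56 ± 0.15 in WT on the log2 scale.

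The M1 response differed between genotypes for 24 of the 69 pathway genes (13 higher and 11 lower in TRα1PV), where 26.6% of all genes were called. These included Dusp1 (1.26 ± 0.19, adjusted p = 3.97e-05), Sik3 (0.53 ± 0.09, adjusted p = 7.96e-05), Prkaca (0.52 ± 0.09, adjusted p = 0.000209) and Gnas (0.45 ± 0.11, adjusted p = 0.00382). For the M2 response edgeR called 0 of the 69, with 5 at an unadjusted p under 0.05 and the lowest adjusted p, 0.0505, at Rgs2, whereas DESeq2 called 1, limma-voom 1 and edgeR with the replicate block 1.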

How the data were processed

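PolyA RNA of 30 libraries was prepared with the KAPA mRNA HyperPrep kit, per the labels' protocols. The authors deposited 1 table of raw read counts per library, with 55414 Ensembl genes, followed by 5 sums of reads outside them. The submitters' processing notes name Trimmomatic 0.39, HISAT2 2.2.1, HTSeq 1.99.2 and the build GRCm39 without their order, and the annotation release is not stated there. Those sums stayed out of library sizes and of the main test. Reads outside genes, as given here, are the sum that overlapped no gene, as a share of that sum and the reads in genes. This share averaged between 9.7 and 13.3% per group and entered 1 alternative fit as a covariate.

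Groups came from the labels. Symbols were matched for 52081 IDs. Genes were kept by edgeR's filter (minimum count 10, minimum total 15), scaled by TMM, and fitted in 1 model of the 6 groups with edgeR 4.0.16 (quasi-likelihood F test, R 4.3.3, 24 residual degrees of freedom). The test was also run on simulated counts with genes changed in TRα1PV M0 alone and no replicate effect. Those counts are simpler than these libraries, so that run does not show how the test performs on them. The fit of the 30 libraries gave 9 comparisons, each with Benjamini-Hochberg adjustment over 15686 genes. An SE is the size of the log2 fold change over the square root of F. Log2 CPM for likeness used a prior count of 2, and likeness was computed against 15685 genes. Motifs were searched as plain letters. Low counts limit Adcy6 most, and also Adcy2 in WT M1 (15 reads), since 1 read was worth between 0.0148 and 0.0414 CPM.

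The members and gene lists were chosen with earlier results of these data known. Named pathway genes were at most 4 called genes per list and comparison, those with the largest fold among genes whose log2 CPM averaged 0 or more. Among the genes named by this rule, 1 is not reported here. Alternatives were RLE size factors, no filter, limma-voom (limma 3.58.1), DESeq2 1.42.0, a replicate block, reads outside genes as a covariate, only the groups compared, leaving out each library, and leaving out both M0 libraries numbered 2. The labels name the replicate number as a batch, so it pairs libraries across groups. The deviations of same-numbered libraries from their group means correlated between -0.37 and 0.33, above 0.1 in 14 of 35 pairs. Libraries of 1 group differed by more than sampling noise in all 60 pairs (chi-square per degree of freedom 6.69 to 206). Nothing says that replicates came from separate animals, so p-values measure the spread between these libraries. No gene coordinates or lengths on GRCm39 were used here.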

Additional observations from a re-analysis of the deposited data

Results flagged for a closer look

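In 4 of 60 groups of 5 libraries, 1 library stood far from the others for 1 of the 10 genes. Chance flags about 1 in 20 groups where values are normally distributed. Adcy6 had 0.108 CPM in TRα1PV M1 replicate 1 and no read in the other TRα1PV M1 libraries. A group with reads in only 1 library is always flagged, so that rate does not apply to Adcy6 there. Adcy9 had 27.2 CPM in TRα1PV M2 replicate 5, Pde7a had 34.9 CPM in TRα1PV M0 replicate 5, and Pde4d had 5.52 CPM in WT M2 replicate 4, each the highest of its group.

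The response to LPS and interferon-γ differed between the genotypes, by the test of that difference, for Pde3b (-1.17 on the log2 scale, TRα1PV minus WT), Pde4b (-1.14), Pde4d (-0.80), Pde7a (-0.41), Pde4a (0.38) and Adcy3 (0.81). The response to interleukin-4 differed for Adcy7 (-0.43) and Adcy3 (0.77). The part of culture make-up or library quality in these differences was not tested.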

How the results depend on the processing

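Over 90 values (10 genes in 9 comparisons) and 38 settings, 48 of 60 calls were kept under every alternative tried for their comparison, and 12 were lost under at least 1. Of 30 values without a call, 4 gained one. With a call in the main or the alternative fit, 0 values reversed. Some values called in neither fit changed sign, such as that of Adcy9 in M0 (0.03, lowest -0.03). The lost and gained calls stand beside their genes in the report. For the M1 difference between genotypes, the number of the 10 genes called was 6 and ranged from 3 to 6 with 1 library left out, with 3 without TRα1PV M1 replicate 1 and 3 without TRα1PV M0 replicate 5. For the M2 difference it was 2 and ranged from 0 to 2, with 0 without TRα1PV M0 replicate 1 and 1 without both M0 libraries numbered 2. Without TRα1PV M0 replicate 1, edgeR gave adjusted p of 0.0652 for Adcy3 and 0.0561 for Adcy7. Of the pathway genes, 22 were called between genotypes in M0 and 14 with only the groups compared. For the M2 difference edgeR called 0 pathway genes, whereas 1 was called with RLE size factors, 1 with limma-voom, 1 with DESeq2, 1 with the replicate block, 1 with reads outside genes as a covariate, 1 with only the groups compared and 1 without both M0 libraries numbered 2, with a range of 0 to 1 when 1 library was left out. The replicate block called 6, 6 and 4 of the 10 genes between genotypes in M0, M1 and M2, and changed no call of those 10 genes in any comparison. The causes were not tested. DESeq2 gave no adjusted p for Adcy6 in some comparisons, which have no value here. Depth limits Adcy6 in M1, with 3 reads in TRα1PV and 13 in WT.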
